A study of Mus musculus with 6 samples.

Results

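Death receptors are proteins of the tumour necrosis factor (TNF) receptor family that can start cell death from the cell surface. When a ligand binds, the cytoplasmic death domain of the receptor recruits the adaptor FADD, which brings in the initiator caspase-8, and the caspase-like protein c-FLIP competes with caspase-8 for this platform. The kinase RIPK1 joins the same complexes and links them to NF-kB signalling, to survival and to necroptosis. In the hematopoietic system Fas and TRAIL signalling are known for the removal of unwanted or damaged cells, and Fas, Tnfrsf10b and Eda2r are known as genes that p53 can activate.

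The 10 genes described here were chosen by name and not by a threshold on their values, but with earlier results of these data known. All 10 were found among the 38293 genes of the count tables by symbol and mouse Ensembl gene identifier. They comprise 4 receptors (Fas, also called CD95; Tnfrsf10b, the mouse TRAIL receptor TrailR2; Eda2r, which binds ectodysplasin A2 and has no death domain; Tnfrsf1a, the main TNF receptor), 2 ligands (Fasl and Tnfsf10, which encodes TRAIL) and 4 genes of proximal signalling (Fadd, Casp8, Cflar and Ripk1). RNA was sequenced from sorted Lin-cKit+ progenitors of fetal liver (FL) at embryonic day 14.5. There were 3 wt libraries and 3 hnRNP L deficient libraries, each from a single C57BL/6 embryo, and the hnRNP L deficient embryos were VavCre+ hnRNP L fl/fl. Cre is under the control of Vav regulatory sequences in these embryos, which are active throughout the hematopoietic system. The labels call the controls wild-type without saying whether these embryos carried the Cre or a floxed allele. They name both fetal liver cells and whole embryo as the source, and the sort is known from the methods of the study.

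Library depth was between 55952160 and 76157226 reads on genes. Hnrnpl, the deleted gene, had 552, 531 and 528 CPM (the reads of a gene scaled to the size of its library) in wt libraries 1 to 3, whereas hnRNP L deficient libraries 1 to 3 had 242, 288 and 270 CPM. It fell by 1.01 ± 0.088 on the log2 scale (SE, n = 3 per group, edgeR adjusted p = 0.0072). The progenitor marker Kit was present in every library, whereas Cd8a and Ncr1, markers of cells outside the gate, had no reads. The summed level of 8 progenitor markers was 1378 to 1957 CPM in wt and 1153 to 1298 CPM in hnRNP L deficient libraries. Of the 8, 5 fell (Kit, Cd34, Flt3, Ptprc and Cd48), where 9.85% of all genes tested fell. The wt library 2 stood apart in the summed level of 7 neutrophil precursor markers, at 7806 CPM. The other wt libraries had 553 and 1431 CPM and the hnRNP L deficient libraries 233, 871 and 862 CPM. Mpo, Elane, Prtn3, Ctsg and Camp were highest in wt library 2, with Mpo alone at 5615 CPM. Ltf and Ngp were instead highest in hnRNP L deficient library 3, at 44.6 and 70.3 CPM against 9.66 and 19.8 CPM in wt library 2. The summed level of 8 macrophage and monocyte markers was 19.8, 131 and 37.9 CPM in wt and 5.36, 10.9 and 10.8 CPM in hnRNP L deficient libraries. The summed level of 6 hepatocyte markers was 114 to 235 CPM in wt and 21.5 to 72.9 CPM in hnRNP L deficient libraries. In sorted but mixed populations such as these, fewer cells of a type and less RNA per cell cannot be told apart.

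Cflar (chromosome 1, 58711508 to 58758884, plus strand) and Casp8 (chromosome 1, 58795374 to 58847503, plus strand) were the closest pair of the 10 genes. The other positions, all GRCm38, are chromosome 19, 34290666 to 34327772, plus strand, for Fas and chromosome 14, 69767472 to 69784411, plus strand, for Tnfrsf10b. Eda2r lies on chromosome X, 97333840 to 97377216, minus strand, and Tnfsf10 on chromosome 3, 27317028 to 27342427, plus strand. Tnfrsf1a lies on chromosome 6, 125349362 to 125362484, plus strand, and Fasl on chromosome 1, 161780689 to 161788495, minus strand. Fadd lies on chromosome 7, 144577318 to 144582463, minus strand, and Ripk1 on chromosome 13, 34002363 to 34037147, plus strand. All 10 are annotated as protein-coding genes. The sequence before the start site is shown for 3 of the genes that changed in opposite directions, Fas and Eda2r, which rose, and Tnfsf10, which fell. It is taken from RefSeq (GRCm38.p6), whose promoters cover 9 of the 10 genes. Tnfrsf10b had no entry, so its promoter was neither shown nor searched. The sequences are written 5′ to 3′ on the strand of the gene, stop before the first transcribed base of either RefSeq or GENCODE, and cover chr19:34290409-34290658 for Fas, chrX:97377217-97377459 for Eda2r and chr3:27316827-27317027 for Tnfsf10. Capitals mark GGGCGG, the core of the GC box, and TATAAA, the core of the TATA box.
Fas: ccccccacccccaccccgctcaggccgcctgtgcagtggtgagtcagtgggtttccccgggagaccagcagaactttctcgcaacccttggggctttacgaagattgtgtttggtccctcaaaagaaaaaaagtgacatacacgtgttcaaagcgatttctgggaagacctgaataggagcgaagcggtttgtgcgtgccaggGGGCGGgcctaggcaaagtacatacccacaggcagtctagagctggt
Eda2r: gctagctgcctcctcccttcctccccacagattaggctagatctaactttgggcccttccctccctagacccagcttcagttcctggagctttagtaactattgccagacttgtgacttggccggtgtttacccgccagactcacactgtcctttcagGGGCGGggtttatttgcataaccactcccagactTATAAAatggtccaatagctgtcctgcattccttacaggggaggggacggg
Tnfsf10: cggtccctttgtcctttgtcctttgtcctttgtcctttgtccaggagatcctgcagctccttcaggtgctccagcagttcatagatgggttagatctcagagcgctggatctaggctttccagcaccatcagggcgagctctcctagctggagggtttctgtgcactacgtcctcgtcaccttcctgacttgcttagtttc

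The window from 250 bases before to 50 bases after the RefSeq start was searched on both strands for 5 patterns. None of the matches given here with a position overlapped another. The GC box core GGGCGG began 47 bases before the start of Fas, with a second match 28 bases after it, and 92 bases before that of Eda2r, and TATAAA began 58 bases before the start of Eda2r. Of 32544 promoters of the same length, 35.9% held GGGCGG and 13.6% held TATAAA. The windows of Tnfsf10, Casp8 and Tnfrsf1a held neither. GGGCGG was also in the windows of Fasl, Fadd and Ripk1, none of which was called, and TATAAA in that of Cflar, which fell. The half-site consensus of p53 was found only in the Fasl window, 115 bases before the start, and 8.36% of all promoters held it. The NF-kB consensus (8.49% of all promoters) and CACACACA (4.10%), a run of the kind of CA repeat that hnRNP L binds, were in none of the windows searched. These windows cover 9 genes, Fasl included and Tnfrsf10b not. These matches describe the letters of short windows only.

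The comparison of hnRNP L deficient to wt cells asked which components of the death receptor pathway changed their mRNA level on loss of hnRNP L. Of the 9 genes that could be tested, 3 rose, 3 fell and 3 were not called at an adjusted p of 0.05. The 3 that rose were all receptors (Fas, Tnfrsf10b and Eda2r), and those that fell were the ligand Tnfsf10, the initiator caspase gene Casp8 and its regulator Cflar. Of these, Fas passed the filter on low counts only through its hnRNP L deficient libraries, so its call is given as description only. Over all 14396 genes tested, 9.32% rose and 9.85% fell, with a median log2 fold change of -0.03. The 10 genes were chosen with earlier results of these data known, so their counts beside these shares are description only. In 5 of the 9 genes the lowest hnRNP L deficient library exceeded the highest wt library, and in 4 the highest hnRNP L deficient library lay under the lowest wt library. The same held for 22.7% and 22.7% of all genes, the counts being 3274 in each direction. The exact permutation test of a single gene gave p = 0.1 for each of the 9, which is the smallest p that 3 libraries against 3 allow.

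**Figure D1:**
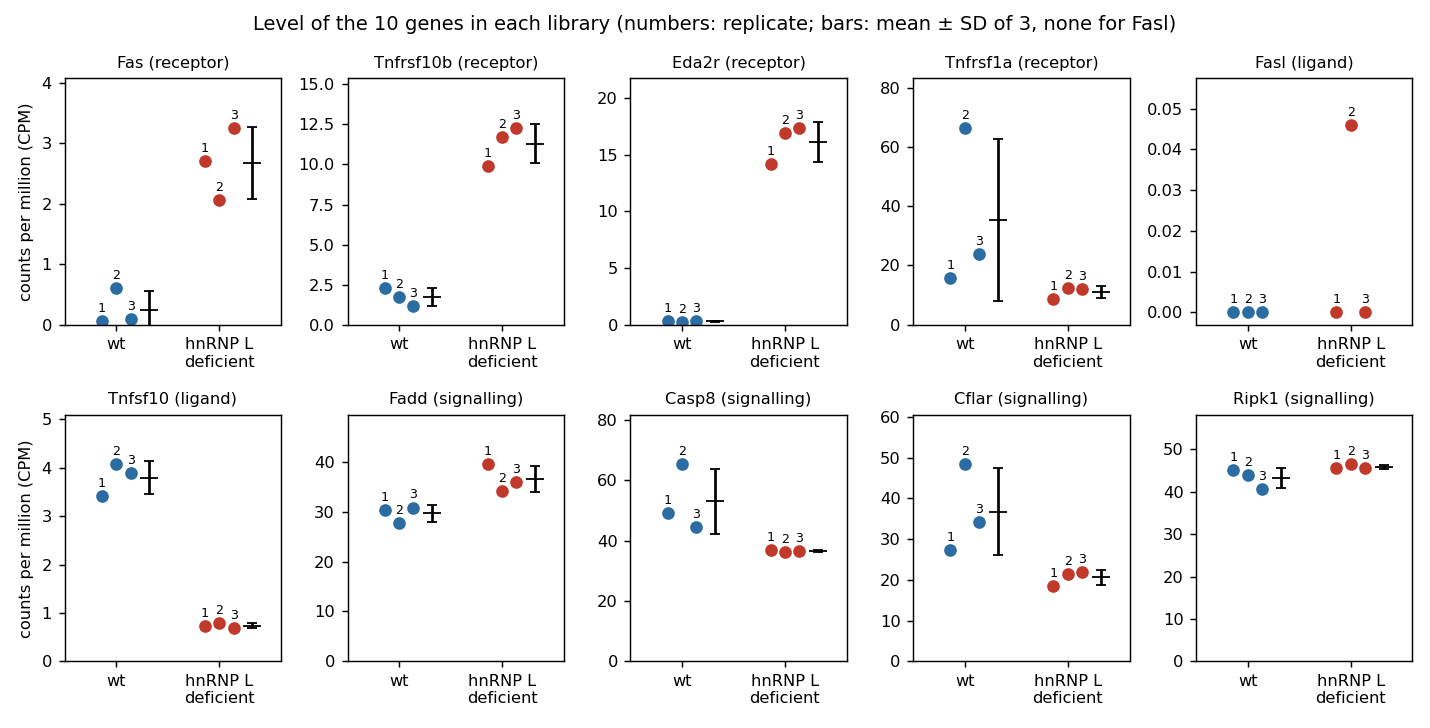
Level of the 10 genes in CPM (linear axis, 1 panel per gene with its own scale) in the 3 wt (blue) and 3 hnRNP L deficient (red) libraries, with replicate numbers beside the points and the mean ± SD beside each group. The groups do not overlap in any of the 9 genes tested, and wt library 2 is the highest point for Tnfrsf1a, Casp8 and Cflar.

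Eda2r had the largest change of the 10 genes. Its level was 0.324, 0.250 and 0.317 CPM in wt libraries 1 to 3, whereas hnRNP L deficient libraries 1 to 3 had 14.1, 16.9 and 17.4 CPM. All wt libraries were low, where 3 reads correspond to at most 0.054 CPM, and the hnRNP L deficient libraries lay far above them with little spread. The log2 fold change was 5.75 ± 0.20 (SE, n = 3 per group, 95% confidence interval 5.28 to 6.23, edgeR adjusted p = 0.00019), which corresponds to a 54.0-fold difference. It ranked 16 among the 14396 genes by size of rise, and it was called in each of the 6 fits that left out 1 library.

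Fas, the receptor of Fas ligand, was nearly silent in wt cells. It had 3, 36 and 7 reads in wt libraries 1 to 3 (0.054, 0.600 and 0.096 CPM) and 174, 135 and 243 reads in hnRNP L deficient libraries 1 to 3 (2.70, 2.07 and 3.26 CPM). The groups did not overlap, and wt library 2 held most of the wt reads. Fas passed the filter on low counts only through its hnRNP L deficient libraries. Its confidence interval and adjusted p are therefore given as description only. The log2 fold change was 3.42 ± 0.81 (SE, n = 3 per group, 95% confidence interval 1.50 to 5.33, edgeR adjusted p = 0.032), a 10.7-fold difference. Without wt library 2 the log2 fold change was 5.08, so this library sets the size of the change more than any other.

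Tnfrsf10b, which encodes the receptor for TRAIL, had 2.27, 1.73 and 1.18 CPM in wt and 9.91, 11.7 and 12.3 CPM in hnRNP L deficient libraries. Every hnRNP L deficient library was thus above 9 CPM while no wt library reached 3 CPM. The log2 fold change was 2.71 ± 0.27 (SE, n = 3 per group, 95% confidence interval 2.08 to 3.34, edgeR adjusted p = 0.0099), a 6.55-fold difference. It ranked 85 of all genes tested by size of rise.

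The fourth receptor, Tnfrsf1a, did not rise. It had 15.6, 66.5 and 23.8 CPM in wt and 8.65, 12.4 and 12.2 CPM in hnRNP L deficient libraries. All hnRNP L deficient libraries were below all wt libraries, but the wt libraries spread over a wide range and wt library 2 was the highest. The log2 fold change of -1.67 ± 0.56 (SE, n = 3 per group, 95% confidence interval -3.06 to -0.29) was not called (edgeR adjusted p = 0.086). Without wt library 2, the library with the highest summed neutrophil precursor and macrophage markers, the log2 fold change was -0.83 and was called (edgeR adjusted p = 0.033). The share of these cells in the result was not tested.

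**Figure D2:**
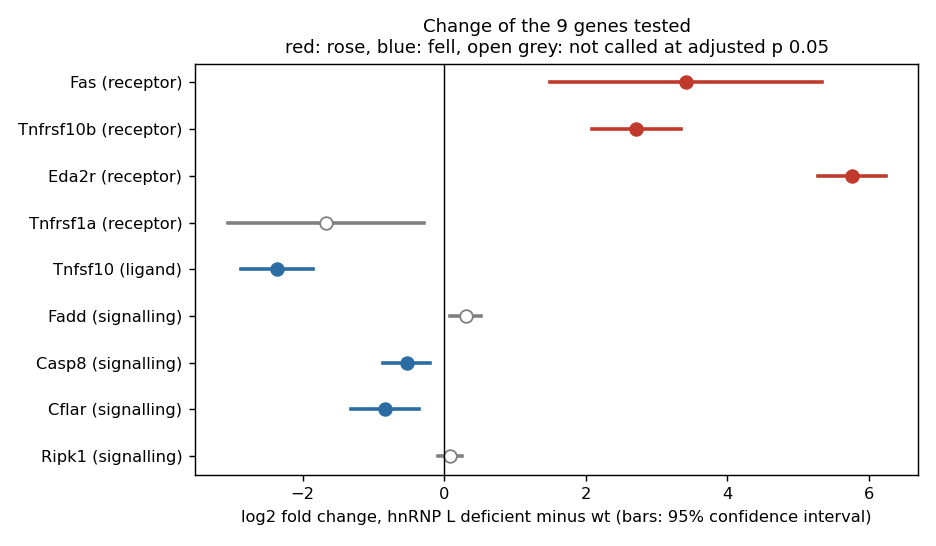
Log2 fold change of hnRNP L deficient over wt cells (horizontal axis, points) with 95% confidence intervals (bars) for the 9 genes tested, in the order receptors, ligand and signalling genes. Of the 4 receptors, 3 lie between 2.71 and 5.75, and the signalling genes lie between -0.83 and 0.30.

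The ligands were low throughout. Fasl, the ligand of Fas, had no reads in 5 libraries and 3 reads in hnRNP L deficient library 2, and it was not tested. Tnfsf10, which encodes TRAIL, had 3.42, 4.07 and 3.90 CPM in wt and 0.730, 0.796 and 0.683 CPM in hnRNP L deficient libraries. Within each group the 3 libraries were close together and the groups were far apart. Tnfsf10 fell by 2.36 ± 0.22 on the log2 scale (SE, n = 3 per group, 95% confidence interval -2.88 to -1.85, edgeR adjusted p = 0.0086), and wt levels were 5.15-fold higher. It ranked 294 of the 14396 genes by size of fall.

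Receptor and ligand of the TRAIL pair therefore moved in opposite directions. The ratio of Tnfrsf10b to Tnfsf10, with CPM per kb of merged exon length, was 0.641, 0.412 and 0.294 in wt libraries 1 to 3 and 13.1, 14.2 and 17.4 in hnRNP L deficient libraries 1 to 3. The ratio was under 1 in every wt library and above 1 in every hnRNP L deficient library. As each gene alone separated the groups, in opposite directions, the ratio had to separate them too. With the length of the longest annotated transcript it was 1.04, 0.669 and 0.477 in wt and 21.3, 23.1 and 28.3 in hnRNP L deficient libraries, so that wt library 1 lay slightly above 1. For Fas no such ratio can be formed, since its ligand was not detected in wt cells at this depth.

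Among the signalling genes, Casp8 and Cflar fell by small amounts. Casp8, the initiator caspase of the pathway, had 49.2, 65.3 and 44.6 CPM in wt and 37.0, 36.3 and 36.7 CPM in hnRNP L deficient libraries. The 3 hnRNP L deficient libraries were nearly identical, and wt library 2 was again the highest. The log2 fold change was -0.53 ± 0.14 (SE, n = 3 per group, 95% confidence interval -0.86 to -0.20, edgeR adjusted p = 0.041).

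Cflar, whose product c-FLIP can block or modulate caspase-8 at the receptor, had 27.4, 48.4 and 34.3 CPM in wt and 18.6, 21.3 and 22.0 CPM in hnRNP L deficient libraries. The groups did not overlap, with wt library 2 the highest. The log2 fold change was -0.83 ± 0.20 (SE, n = 3 per group, 95% confidence interval -1.31 to -0.35, edgeR adjusted p = 0.034). Without wt library 2 the log2 fold changes were -0.35 for Casp8 and -0.58 for Cflar, and both were called. The part of the neutrophil precursor and macrophage markers of that library in these falls was not tested.

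Since both genes fell, the ratio between them was computed as well. The ratio of Casp8 reads to Cflar reads was 1.79, 1.35 and 1.30 in wt and 1.99, 1.70 and 1.67 in hnRNP L deficient libraries. The groups overlapped, since wt library 1 lay above hnRNP L deficient libraries 2 and 3.

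Fadd, the adaptor between receptor and caspase, had 30.4, 27.7 and 30.8 CPM in wt and 39.5, 34.2 and 36.0 CPM in hnRNP L deficient libraries. All hnRNP L deficient libraries were above all wt libraries, but the log2 fold change of 0.30 ± 0.092 (SE, n = 3 per group, 95% confidence interval 0.087 to 0.52) was not called (edgeR adjusted p = 0.059). DESeq2 did call it, at an adjusted p of 0.026. The ratio of Fadd to Casp8 per kb was 0.458, 0.315 and 0.512 in wt and 0.790, 0.699 and 0.727 in hnRNP L deficient libraries, which did not overlap.

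Ripk1, the kinase that links death receptors to NF-kB and necroptosis, had 45.2, 43.9 and 40.7 CPM in wt and 45.7, 46.4 and 45.5 CPM in hnRNP L deficient libraries. The groups were separated by a narrow gap, and the log2 fold change of 0.085 ± 0.073 (SE, n = 3 per group, 95% confidence interval -0.087 to 0.26, edgeR adjusted p = 0.43) was not called. Exons of Ripk1 share 241 bases with Serpinb6a on the opposite strand and 511 bases with the pseudogene Gm17084 on the same strand, so that some reads could belong to either gene.

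Of the 6 genes called, Eda2r alone passed the threshold in all 6 fits with 1 library left out. Fas, Tnfrsf10b, Tnfsf10, Casp8 and Cflar each passed it in 2, those without wt library 1 or wt library 2. They missed it without wt library 3 or without hnRNP L deficient library 1, 2 or 3, at adjusted p between 0.052 and 0.14 (edgeR). The count of genes called fell in the same 4 fits, from 1341 risen genes over the whole table to between 5 and 15, and from 1418 fallen genes to between 0 and 2. No gene of the 9 changed its direction. Tnfrsf10b stayed between 2.50 and 2.96 and Tnfsf10 between -2.43 and -2.31 on the log2 scale.

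**Figure D3:**
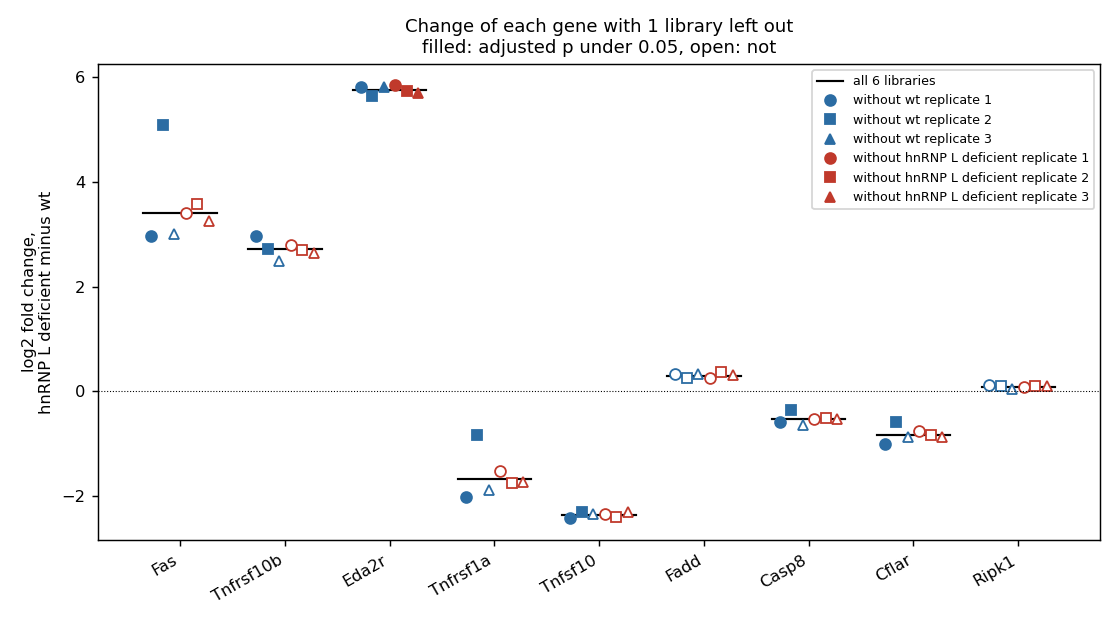
Log2 fold change of each of the 9 genes (vertical axis) in the fit of all 6 libraries (black line) and in the 6 fits without 1 library (symbols, filled where the edgeR adjusted p was under 0.05). Eda2r is filled throughout between 5.65 and 5.85, and Fas moves most, up to 5.08 without wt library 2.

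Levels of different genes were compared as CPM per kb of merged exon length. In wt cells the order of the mean levels was Casp8 (18.3), Tnfrsf1a (13.6), Fadd (7.60), Ripk1 (5.19), Cflar (2.90), Tnfsf10 (0.721), Tnfrsf10b (0.317), Fas (0.121), Eda2r (0.050) and Fasl (0). Signalling genes were thus above the ligands and above all receptors other than Tnfrsf1a. The libraries of neighbours in this order overlapped for Casp8 and Tnfrsf1a, Tnfrsf1a and Fadd, Tnfrsf10b and Fas, and Fas and Eda2r.

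In hnRNP L deficient cells the order was Casp8 (12.7), Fadd (9.37), Ripk1 (5.50), Tnfrsf1a (4.27), Eda2r (2.74), Tnfrsf10b (2.07), Cflar (1.63), Fas (1.30), Tnfsf10 (0.140) and Fasl (0.0079). Casp8 came first in both orders, while the 3 receptors that rose reached mean levels between 1.30 and 2.74 CPM per kb. Only Cflar and Fas overlapped between libraries. With the length of the longest annotated transcript in place of the merged exons, Tnfrsf10b came before Eda2r.

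Exon bins, the non-overlapping pieces into which annotated exons are divided, were counted in 3 wt libraries and in hnRNP L deficient libraries 2 and 3. The bins of hnRNP L deficient library 1 were not analysed here. The embryo numbers of libraries 2 and 3 share a first part that no wt library has. In the bin comparison, group and this number therefore cannot be told apart. Of the 137 bins of the 10 genes 105 had enough reads to be tested for a change in usage relative to the rest of the gene, and 0 were called by diffSpliceDGE of edgeR. Of all 176996 bins tested 0.0288% were called. At an unadjusted p under 0.05 there were 3 of these 105 bins (2.86%), beside 1.03% of all bins tested, and limma diffSplice also called 0.

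The 3 bins with the smallest p were in Eda2r, Cflar and Ripk1. Those in Eda2r and Cflar reached the required mean of 10 reads only through their hnRNP L deficient libraries. Their unadjusted p, and the share of 2.86% that counts them, are therefore given as description only. Bin 8 of Eda2r had no reads in the 3 wt libraries and 79 and 112 reads in hnRNP L deficient libraries 2 and 3 (log2 usage change 3.64, unadjusted p = 0.0084, adjusted p = 1.00 by edgeR). Bin 10 of Cflar had 1, 5 and 12 reads in wt and 17 and 26 reads in hnRNP L deficient libraries (log2 usage change 2.45, unadjusted p = 0.0036, adjusted p = 1.00 by edgeR). Cflar as a whole fell, so this bin went against its gene. Bin 20 of the unit that merges Ripk1 with Gm17084 had 80, 119 and 66 reads in wt and 32 and 56 reads in hnRNP L deficient libraries (log2 usage change -1.26, unadjusted p = 0.012, adjusted p = 1.00 by edgeR).

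The few wt reads of Eda2r lay mainly at its 3′ end. The grouping of bins given here was chosen after their values were seen and was not tested. Bins 1 to 4 of Eda2r, a minus strand gene whose bins are numbered from its 3′ end, held 23, 15 and 29 reads in wt libraries 1 to 3, and its other bins held 2, 0 and 0. In hnRNP L deficient libraries 2 and 3 the same bins held 1066 and 1168 reads and the other bins 308 and 499. Reads over the body of Eda2r were thus almost confined to the hnRNP L deficient libraries. The last bin of Fas, bin 10, held 2, 32 and 5 reads in wt libraries 1 to 3, which were 50%, 71.1% and 38.5% of their bin reads. In hnRNP L deficient libraries 2 and 3 it held 82 and 151 reads, or 30.4% and 32.1%. Outside this bin Fas had 2, 13 and 8 reads in wt and 188 and 319 reads in hnRNP L deficient libraries.

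**Figure D4:**
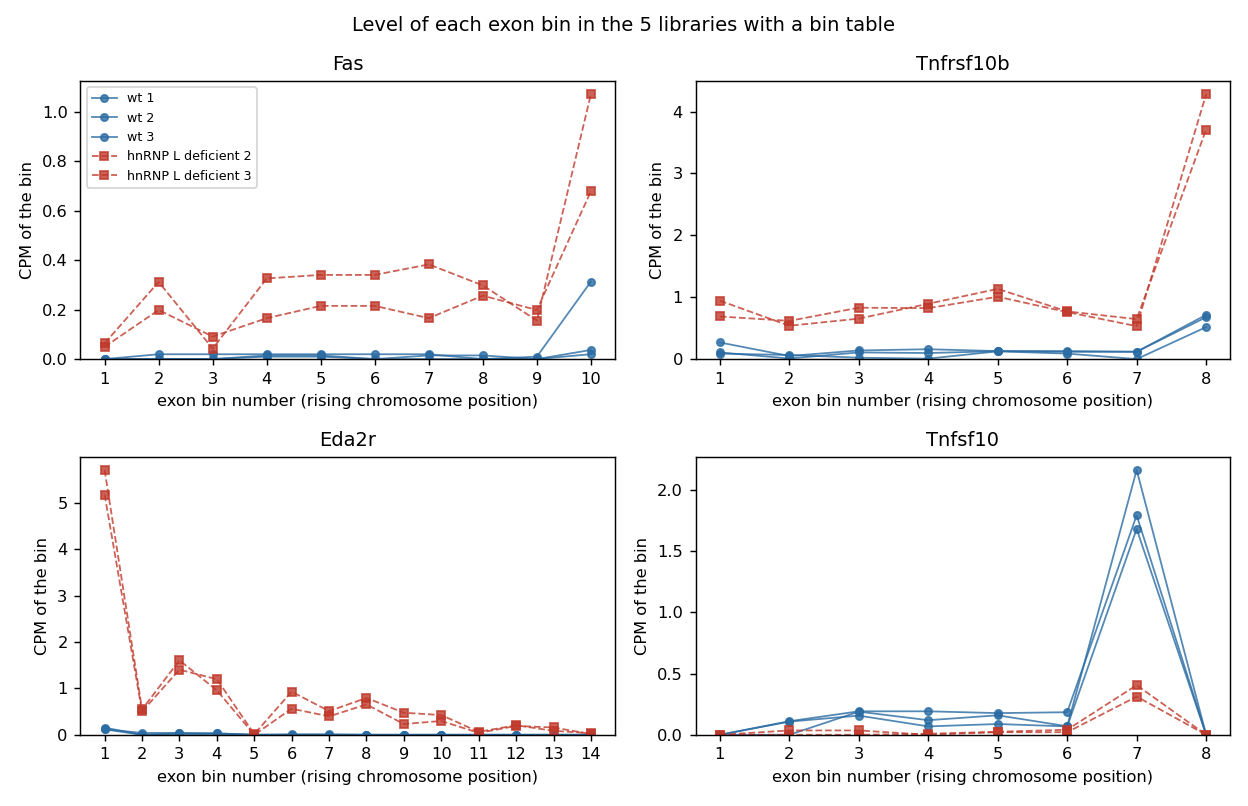
CPM (linear axis) of each exon bin, numbered by rising chromosome position, for Fas, Tnfrsf10b, Eda2r and Tnfsf10 in 3 wt (blue, circles) and 2 hnRNP L deficient (red, squares) libraries. The red lines lie above the blue in most bins of the 3 receptors, and the blue lines lie above the red in bin 7 of Tnfsf10.

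The further genes of the pathway were taken from 6 lists with 89 genes, of which 69 could be tested. Of these 69, 5 rose, 10 fell and 54 were not called, and the median log2 fold change was -0.18. The corresponding shares of all genes tested were 9.32% and 9.85%, and most of the pathway was not called. Without wt library 2 the counts were 8 risen and 15 fallen genes, beside 1672 risen and 1855 fallen of all 14651 genes tested in that fit. Without wt library 3 or any 1 of the hnRNP L deficient libraries edgeR called 0 in either direction, while 6 to 9 were higher and 13 to 20 lower at an unadjusted p under 0.05.

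Among 16 tested receptors of the TNF family other than the 4 above, 1 rose and 1 fell, beside 9.32% and 9.85% of all genes tested. Tnfrsf12a, the receptor of TWEAK, had 0.486, 0.634 and 0.330 CPM in wt and 1.69, 0.995 and 1.19 CPM in hnRNP L deficient libraries (log2 fold change 1.42, SE 0.37, edgeR adjusted p = 0.041). Cd27, a costimulatory receptor that also marks hematopoietic progenitors, had 7.99, 16.5 and 14.4 CPM in wt and 2.17, 2.74 and 1.80 CPM in hnRNP L deficient libraries (log2 fold change -2.53, SE 0.31, edgeR adjusted p = 0.011). The groups were separate for both genes, as for 22.7% of all genes tested in each direction. The mouse TRAIL decoy receptors Tnfrsf22 and Tnfrsf23 were not called, at 1.98, 2.97 and 1.86 CPM against 1.54, 1.22 and 1.13 CPM for Tnfrsf22 and at most 0.500 CPM in any library for Tnfrsf23. Tnfrsf11b, which encodes the soluble TRAIL-binding receptor osteoprotegerin, reached at most 0.028 CPM and was not tested.

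Among 6 tested ligands, 1 rose and 1 fell, beside 9.32% and 9.85% of all genes tested. Tnfsf4, the OX40 ligand, had 0.072, 0.083 and 0.151 CPM in wt and 1.62, 1.61 and 1.81 CPM in hnRNP L deficient libraries (log2 fold change 3.99, SE 0.38, edgeR adjusted p = 0.0097). With 4, 5 and 11 reads in wt, it passed the filter on low counts only through its hnRNP L deficient libraries. The call and adjusted p of Tnfsf4 are therefore given as description only. Ltb, which encodes lymphotoxin beta, had 1.57, 2.20 and 1.27 CPM in wt and 0.683, 0.780 and 0.536 CPM in hnRNP L deficient libraries (log2 fold change -1.33, SE 0.32, edgeR adjusted p = 0.033). For both genes the groups were separate, which held for 22.7% of all genes tested in each direction. Tnf itself had 0.756, 2.13 and 0.619 CPM in wt and 0.295, 0.796 and 0.496 CPM in hnRNP L deficient libraries, which overlapped, and was not called.

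Among 24 tested adaptors and ubiquitin enzymes of the receptor complexes, 2 rose and 3 fell, beside 9.32% and 9.85% of all genes tested. Pidd1, the scaffold of the complex that activates caspase-2, rose, with 76.6, 71.5 and 82.5 CPM in wt against 110, 122 and 120 CPM in hnRNP L deficient libraries (log2 fold change 0.61, SE 0.082, edgeR adjusted p = 0.013). Rnf31, the catalytic subunit of the linear ubiquitin ligase, rose by 0.34 on the log2 scale. The genes that fell were Cyld, a deubiquitinase that acts on RIPK1 (log2 fold change -0.61), and the inhibitor of apoptosis genes Xiap (-0.37) and Birc2 (-0.27), which encode ubiquitin ligases. In all 5 genes, which were named for passing the threshold, the groups did not overlap. The same held for 22.7% of all genes tested in each direction. Tradd, the adaptor of the TNF receptor, was not called (log2 fold change 0.021, 95% confidence interval -0.25 to 0.29). None of the 10 kinases and subunits towards NF-kB was called by edgeR, with log2 fold changes between -0.62 and 0.15. At an unadjusted p under 0.05 there was 1, Nfkbia, which encodes the inhibitor of NF-kB (log2 fold change -0.62, edgeR adjusted p = 0.099). DESeq2 called 1 of the 10 and limma-voom called 4, all of them lower in hnRNP L deficient cells. Over all 14396 genes tested DESeq2 called 2236 lower and limma-voom 2774.

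Both tested genes of necroptosis fell, at adjusted p close to the threshold, where 9.85% of all genes tested fell. Ripk3 had 55.5, 63.9 and 58.9 CPM in wt and 49.8, 48.7 and 49.9 CPM in hnRNP L deficient libraries (log2 fold change -0.27, SE 0.076, edgeR adjusted p = 0.0499). Mlkl, the membrane-permeabilizing effector, had 5.53, 13.9 and 6.76 CPM in wt and 3.23, 3.98 and 3.78 CPM in hnRNP L deficient libraries (log2 fold change -1.25, SE 0.35, edgeR adjusted p = 0.049), with wt library 2 the highest. Without wt library 2 Ripk3 was no longer called (log2 fold change -0.21, edgeR adjusted p = 0.058), and Mlkl was called at a log2 fold change of -0.75. Ripk3 was also not called with median-of-ratios scaling (edgeR adjusted p = 0.054) or without a filter (0.10). Neither was called without robust estimation (0.052 for both), without wt library 3 or without any 1 hnRNP L deficient library (0.084 to 0.20). Both were called by DESeq2, by limma-voom, with total counts and without wt library 1.

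Among 11 tested executioners and substrates, 1 rose and 3 fell, where 9.32% of all genes tested rose and 9.85% fell. Dffb, the nuclease that cuts DNA in apoptosis, rose, with 28.7, 27.1 and 29.3 CPM in wt against 42.5, 44.3 and 41.9 CPM in hnRNP L deficient libraries (log2 fold change 0.60, SE 0.076, edgeR adjusted p = 0.012). Casp6, Casp9 and Casp2 fell by 0.48, 0.37 and 0.37 on the log2 scale. Bid, which carries the signal of caspase-8 to mitochondria, and Parp1, a DNA repair enzyme that is cut in apoptosis, were not called. Their log2 fold changes were 0.0023 and 0.12, and for both of them the libraries of the 2 groups overlapped.

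**Figure D5:**
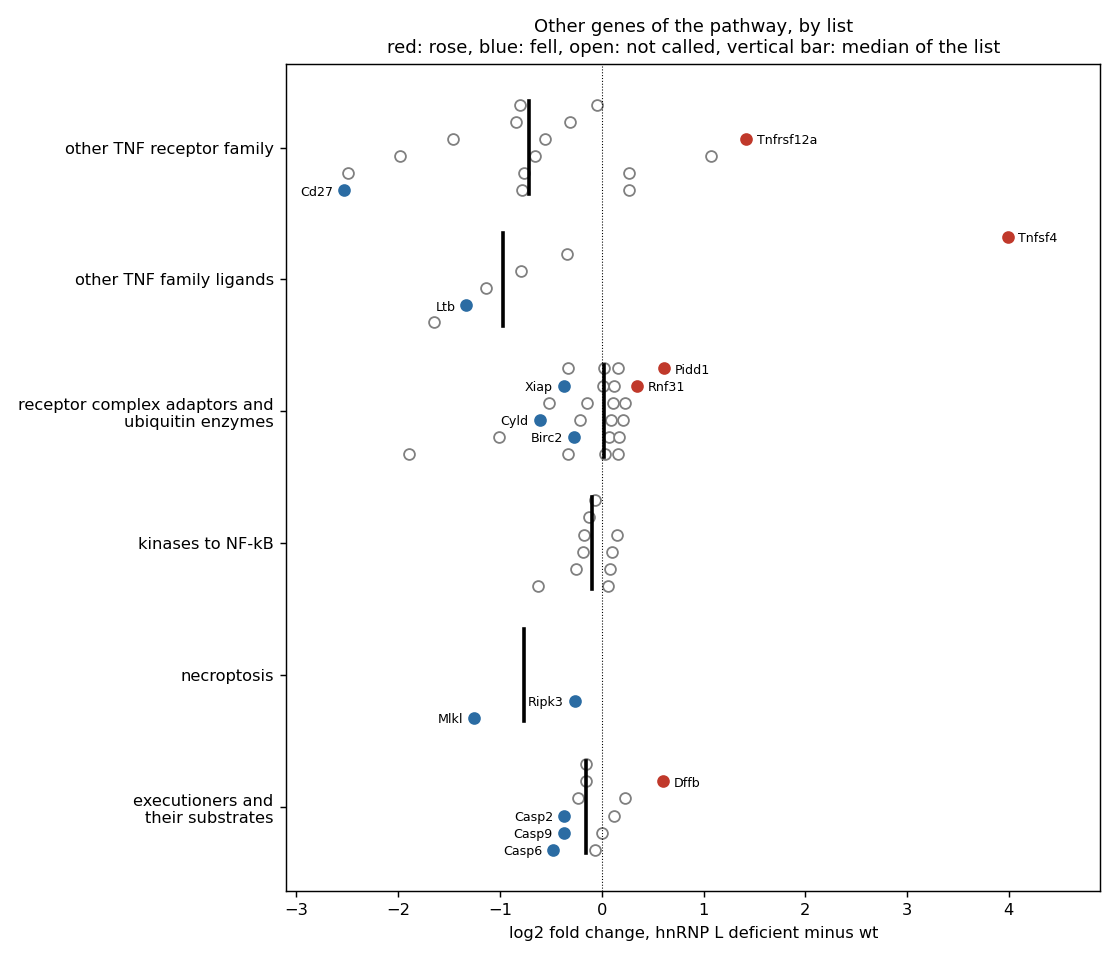
Log2 fold change of hnRNP L deficient over wt cells (horizontal axis) for the 69 tested genes of 6 lists, with genes that rose in red, genes that fell in blue, the others open and the median of each list as a vertical bar. Tnfsf4 at 3.99 and Cd27 at -2.53 lie farthest out, and no gene of the NF-kB kinases is filled.

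Genes with the most similar pattern were sought among 11619 genes with a mean of at least 1 CPM, by the root mean square difference of centred log2(CPM + 0.1) over the 6 libraries. Nearest to Tnfrsf10b were Tulp2 (0.14), Etv4 (0.20) and Zmat3 (0.25), to Eda2r Zfp365 (0.27), Inka2 (0.46) and Got1l1 (0.49), and to Fas Cd80 (0.51), Trp53inp1 (0.55) and Fat1 (0.58). Zmat3 and Trp53inp1 are known p53 target genes. Nearest to Tnfsf10 were Tlr12 (0.18), Sept4 (0.19) and Arhgap32 (0.22), to Casp8 Sdr42e1 (0.033), Ccdc126 (0.038) and Erap1 (0.055), and to Cflar Ccnd1 (0.044), Dach1 (0.055) and Fchsd2 (0.060). With 6 libraries in 2 groups this measure mainly reflects the size of the difference between the groups.

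CA repeats were counted in the longest annotated transcript of the 9 genes tested. CACACACA occurred at 10 positions in Casp8, 4 in Cflar and 1 in Eda2r, overlapping matches included, and in none of the other 6. Of 12496 tested coding genes 20.5% had at least 1 such match. The count is of letters in the annotated transcript and says nothing of binding.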

How the data were processed

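RNA of Lin-cKit+ FL cells was sequenced from 3 wt and 3 hnRNP L deficient embryos. Alignment to GRCm38 was done by the authors with Tophat 2.0.10. They counted them per gene with HTSeq and per exon bin with the DEXSeq script and deposited whole-number counts without normalization. The options of the counting, including strand, and the annotation release were not given in the sources used here. Rows that name no gene held 46.7% to 53.3% of the counted reads per library, mostly reads that aligned to several places, and were left out.

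Deposited gene counts were fitted as 1 table with edgeR 4.0.16 in R 4.3.3 (TMM factors, default expression filter, robust quasi-likelihood test, Benjamini-Hochberg adjustment over 14396 genes, threshold 0.05). CPM use TMM library sizes. Standard errors were derived from the F statistic and the log2 fold change. Exon bins entered diffSpliceDGE when they averaged 10 reads or more. Alternatives used DESeq2 1.42.0, limma 3.58.1, other scalings and filters, and each library left out. Both fits were tested on simulated counts. Lengths are from GENCODE M21. Depth leaves 3 reads at 0.054 CPM or less.

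The 10 genes and all lists were chosen with earlier results of these data known. Named pathway genes are those past the threshold, at most 6 per list and direction, and a set always given (Tnfrsf22, Tnfrsf23, Tnfrsf11b, Tnf, Ltb, Tradd, Ripk3, Mlkl, Bid and Parp1), of which some members are not reported here. The 3 genes most similar to each called gene were named by the root mean square difference. The 3 bins named are those with an unadjusted p under 0.05. Nfkbia was named after its values were seen.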

Additional observations from a re-analysis of the deposited data

How the results depend on the processing

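Over 14 alternatives for each of the 9 genes, 99 of 126 log2 fold changes kept their direction and their side of the threshold, 20 lost the call, 7 gained it and none reversed. The 20 losses came from leaving out wt library 3 or an hnRNP L deficient library. The gains were in Tnfrsf1a (DESeq2 -1.66, limma-voom with sample weights -1.07, block -0.85, and the fits without wt library 1 or 2) and Fadd (DESeq2 0.31, block 0.38). With 1 library left out the number of the 10 genes that rose was 1 to 3 and that fell 0 to 4. For the pathway genes these ranges were 0 to 8 and 0 to 20. The cause was not tested. DESeq2 called 17 falling pathway genes. Limma-voom called 9 that rose and 21 that fell. Over all genes DESeq2 called 2064 risen and 2236 fallen and limma-voom 2576 and 2774. Of the exon bins 0 were called under every alternative run.

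The embryo numbers pair wt library 1 with hnRNP L deficient library 1 and hnRNP L deficient libraries 2 and 3 with each other, but the labels do not say what the number marks. With its first part as a block, 1 residual degree of freedom remained, the fold change rested on the first pair alone, and 11 pathway genes rose and 20 fell. In this pair alone the log2 ratio was 5.07 for Eda2r, 4.19 for Fas, 2.08 for Tnfrsf10b and -2.08 for Tnfsf10. The scaling by total counts moved the median log2 fold change of all genes from -0.03 to -0.10. With longest transcripts, Tnfrsf10b took place 5 and Eda2r place 6 in hnRNP L deficient cells.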
